A study of Mus musculus with 6 samples.

Results

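The 1907 regions described here carry H3K4me1, the monomethylated form of histone H3 lysine 4, in the embryonic mouse whisker pad, and lie between genes more than 50 kb from any protein-coding start site. They were found by merging the H3K4me1 peaks of 3 replicates wherever peaks overlapped by at least 1 bp, which gave 19054 regions on chromosomes 1 to 19. Of these, 8840 held a peak of all 3 replicates, and the 1907 are the 21.6% of them that were shorter than 15000 bp, had their midpoint outside every protein-coding gene of GENCODE M21 and passed the distance limit. The other regions in all 3 replicates were 5272 inside a protein-coding gene, 1347 between genes but within 50 kb of a start site, and 314 of 15000 bp or more. The distance limit cut through a continuous range, since the closest of the 1907 regions lay 50.05 kb from a start site and the farthest of the near intergenic regions lay 49.93 kb from one.

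Whole whisker pads of wild-type B6/J2 mice at embryonic day 12 were dissociated to single cells, and CUT&Tag was used to map H3K4me1. In this assay an antibody brings a transposase to the mark so that the DNA around it is cut out and sequenced. The series has 6 samples, 3 with the H3K4me1 antibody and 3 with IgG. Without the IgG samples, which were not analysed here, no control level can be set beside the values. A pad holds mesenchyme, surface ectoderm, nerve, vessel and muscle cells together, and fewer cells of a type cannot be told apart from less of the mark per cell. The source name of 4 samples, replicates 2 and 3 of H3K4me1 among them, reads adult kidney, while every title reads whisker pad. The titles were used, and counts on marker genes are given below, which are no independent test of this label.

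H3K4me1 marks enhancers, both those in use and those in waiting, and spreads over the flanks of active promoters. Enhancers of developmental genes often lie in gene deserts, long stretches without protein-coding genes, and can act on a distant start site, past other genes. In the embryonic face, deserts beside transcription factor and signalling genes are known to hold such elements, which are active in the mesenchyme that neural crest cells form.

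The 4 stretches of sequence below are shown because they carry the centre of strong regions in the fullest deserts. Each is from the region with the highest signal in its desert, and they are the deserts among the 12 fullest in which the stretches of highest pileup of all 3 replicates spanned at most 260 bases together, a choice made after the values were seen. The Mki67–Mgmt desert, at 263 bases, fell just outside it, and the other 7 spanned 1005 bases or more. Capitals mark the stretch that spans the 3 replicates' highest pileups. Coordinates are GRCm38, plus strand, and the bases are those of the RefSeq reference.

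Gm11361–Sox4, chr13:28417455-28417583: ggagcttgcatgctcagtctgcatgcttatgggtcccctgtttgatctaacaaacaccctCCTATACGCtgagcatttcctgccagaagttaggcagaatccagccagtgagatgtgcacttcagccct
Cmpk2–Sox11, chr12:27139813-27139941: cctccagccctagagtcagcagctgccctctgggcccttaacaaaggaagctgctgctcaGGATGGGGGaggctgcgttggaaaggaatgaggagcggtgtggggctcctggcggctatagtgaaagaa
Rps24–Zmiz1, chr14:25064558-25064856: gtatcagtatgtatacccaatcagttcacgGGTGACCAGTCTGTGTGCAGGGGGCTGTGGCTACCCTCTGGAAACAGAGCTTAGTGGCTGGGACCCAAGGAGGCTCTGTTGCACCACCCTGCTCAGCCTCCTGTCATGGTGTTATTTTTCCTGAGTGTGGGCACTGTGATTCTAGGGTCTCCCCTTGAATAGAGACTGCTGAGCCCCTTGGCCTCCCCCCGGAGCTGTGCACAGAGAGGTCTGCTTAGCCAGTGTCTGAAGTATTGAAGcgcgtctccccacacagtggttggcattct
Cdh11–Cdh5, chr8:103270892-103271071: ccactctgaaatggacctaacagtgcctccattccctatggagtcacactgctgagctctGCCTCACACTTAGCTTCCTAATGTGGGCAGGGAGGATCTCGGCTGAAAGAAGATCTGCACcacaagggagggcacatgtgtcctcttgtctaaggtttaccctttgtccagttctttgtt

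In the first of these, between Gm11361 and Sox4, the highest pileups of the 3 replicates fell within the same 9 bases, as they did in the stretch between Cmpk2 and Sox11. The capitals span 239 bases in the stretch beside Zmiz1 and 60 bases in the stretch between Cdh11 and Cdh5. Across the 1907 regions, the median distance between the outermost of the 3 highest pileups was 481 bp, compared with 467 bp in the near intergenic regions. None of 9 searched motifs was found on either strand of the 4 stretches.

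The same motifs were counted in the 300 bp around the mean place of the highest pileup of every region. The homeodomain letters TAATTA were found in 5.93% of the 1907 far regions and in 5.75% of all regions in 3 replicates. The E-box CAGATG, the form bound by TWIST factors, was found in 28.1% and 26.6%. The TCF/LEF letters CTTTGAT were found in 4.67% and 4.28%, the palindromic NFI site in 1.68% and 1.81%, the AP-1 letters TGANTCA in 8.39% and 8.76%, and the GATA letters AGATAA in 12.8% and 11.97%. AGGTCA, the half-site of nuclear receptors, was found in 18.6% and 18.2%. The GC-rich AP-2 letters GCCNNNGGC were found in 10.3% of far regions and 10.6% of all regions, compared with 13.1% of the near intergenic regions, and the CTCF core motif in 1.15%, 1.58% and 1.71%, in that order. These are counts of letters, which say nothing on binding.

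The question put to the far regions was how they differ from the shared regions nearer to genes, which gene deserts hold them, and which genes flank those deserts. Each replicate gave a large share of its own peaks to intergenic sequence beyond 50 kb. Such peaks numbered 3407 in replicate 1, 2492 in replicate 2 and 3339 in replicate 3, which was 20.5%, 19.4% and 24.1% of the autosomal peaks (21.3% ± 2.5, SD, n = 3). They held 17.0%, 15.8% and 21.2% of the signal in the lists. Replicate 3 had the highest share on both counts, and its share of peaks in near intergenic sequence, 14.9%, was below the 16.5% and 16.8% of replicates 1 and 2.

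Far, near and genic regions recurred between replicates at like shares. Of all 4210 merged far regions shorter than the length limit, 1907, or 45.3%, were in all 3 replicates, compared with 45.0% of near intergenic and 45.7% of genic regions. A further 876 far regions were in 2 replicates and 1427 in 1 replicate. Of the regions in a single replicate, 545 were from replicate 1, 88 from replicate 2 and 794 from replicate 3. Nothing in the labels says whether the 3 pads came from separate embryos, so the spread between replicates may be technical.

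The far regions were a little shorter than the rest and poorer in GC than their near intergenic counterparts. Their median length was 4548 bp, with the middle 50% between 3546 and 6048 bp, compared with 4663 bp for near intergenic and 5147 bp for genic regions. Their median GC content was 46.3%, compared with 48.7% near and 47.2% in genes. The far regions were thus 2.35 percentage points below the near ones, and the same difference over all the peaks of a list was -2.69 in replicate 1, -2.90 in replicate 2 and -2.67 in replicate 3 (mean -2.76 ± 0.13, SD, n = 3). GC content fell with distance, from a median of 47.5% in the 606 regions between 50 and 100 kb to 46.4% in the 729 between 100 and 200 kb, 45.0% in the 532 between 200 and 500 kb and 43.5% in the 40 beyond that.

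The median far region lay 140 kb from a start site, with the middle 50% between 85.9 and 223 kb. In all, 1301 regions (68.2%) were more than 100 kb away, 572 (29.99%) more than 200 kb, 40 (2.10%) more than 500 kb and 1 more than 1000 kb. The nearest start site belonged to 827 different genes, and 984 regions, or 51.6%, lay upstream of it. Over the 1907 regions, Spearman's rho of distance with the mean percentile of total signal was -0.02, given as a description because regions of one library share its depth and base composition.

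**Figure D1:**
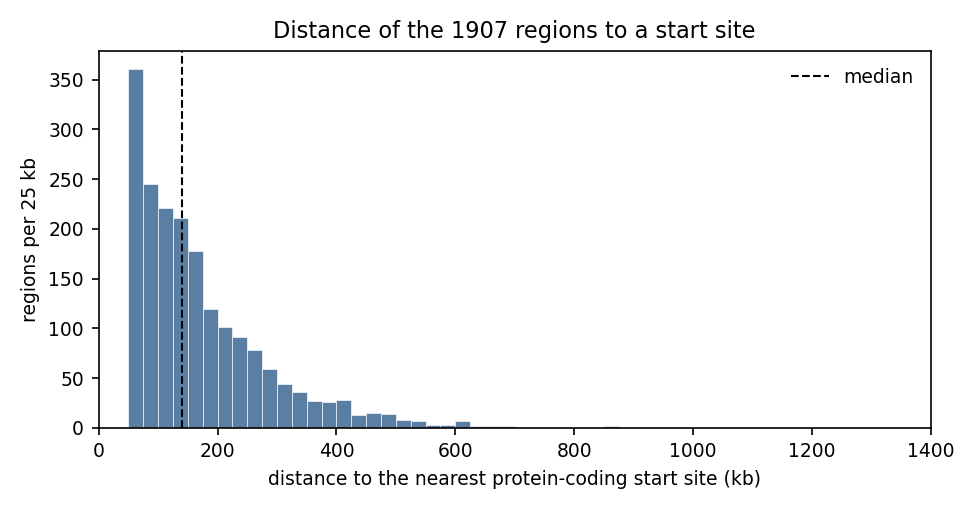
Distance of each of the 1907 far regions to the nearest protein-coding start site, in kb on the x axis, with the number of regions per 25 kb on the y axis and the median of 140 kb as a dashed line. The counts fall steadily from the 50 kb limit, and 40 regions lie beyond 500 kb.

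The farthest region lay 1327 kb upstream of Zeb2, which encodes a zinc finger repressor of neural crest cells, at chr2:46441498-46446768 in the desert between Zeb2 and Acvr2a. Its total signal stood at percentile 78.6 of the list in replicate 1, 67.9 in replicate 2 and 79.8 in replicate 3, where a percentile is the share of the replicate's own peaks with a lower value. All 3 replicates thus placed it well above their median peak. The next were a region 856 kb upstream of Adgrl2, an adhesion receptor, at percentiles 66.6, 49.5 and 78.5, and a region in the desert between Myc and Gsdmc, 855 kb from the Gsdmc start site, at 40.1, 6.38 and 58.7. The region between Myc and Gsdmc was near the lower end of the list in replicate 2. Over all regions in 3 replicates the median percentiles were 70.7, 62.6 and 64.6, so that shared regions in general stood lowest in replicate 2. The region 807 kb upstream of Pou3f3, a POU-domain transcription factor gene, was strong in every replicate, at 92.96, 89.97 and 97.18. The region 749 kb from Inhba, the gene of the activin beta A subunit, was weak in every replicate, at 16.3, 9.99 and 6.71.

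Signal in far regions differed between replicates in direction when set against near intergenic regions. The median percentile of total signal in far regions was 65.7 in replicate 1, 54.8 in replicate 2 and 64.9 in replicate 3, and in near regions it was 69.3, 63.2 and 57.9. The far minus near difference was thus -3.58 and -8.38 points in replicates 1 and 2, and 6.97 points in replicate 3. The mean difference was -1.67 ± 7.85 points (SD, n = 3), which did not pass an exact two-sided sign-flip permutation test over the 3 replicates (p = 0.75), and 3 replicates cannot go below p = 0.25 in this test. Peak length behaved likewise, with far minus near differences of -130, -175 and 215 bp and a mean of -30.0 ± 213 bp (SD, n = 3, exact sign-flip p = 1). The mean percentile difference changed sign, to 0.61 points, with a distance limit of 25 kb and, to 0.41 points, when the maximum signal was ranked in place of the total.

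Replicate 3 stood apart from the others in base composition. The median GC content of its autosomal peaks was 45.7%, compared with 48.4% in replicate 1 and 48.7% in replicate 2. As a share of the signal in all shared regions, a far region had a median log2 ratio of replicate 3 over replicate 2 of 0.28, and the ratio was above 0 in 69.4% of them, compared with a median of -0.02 and 48.2% in near intergenic regions. Split into 5 groups by GC content, the far regions had median log2 ratios of 0.93, 0.50, 0.30, 0.02 and -0.36 from the lowest to the highest GC. Near intergenic regions within the same GC limits had 0.87, 0.56, 0.25, 0.05 and -0.47, so that far and near regions of like GC content had like ratios. The ratio of replicate 1 over replicate 2 stayed between -0.08 and 0.03 in the 5 groups of far regions. The part of GC content in the difference between far and near regions was not tested beyond these values. Over the 1907 regions, which share their libraries, Spearman's rho of total signal was 0.88 between replicates 1 and 2, 0.73 between 1 and 3 and 0.69 between 2 and 3, and that of GC content with the log2 ratio of replicate 3 over 2 was -0.80.

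**Figure D2:**
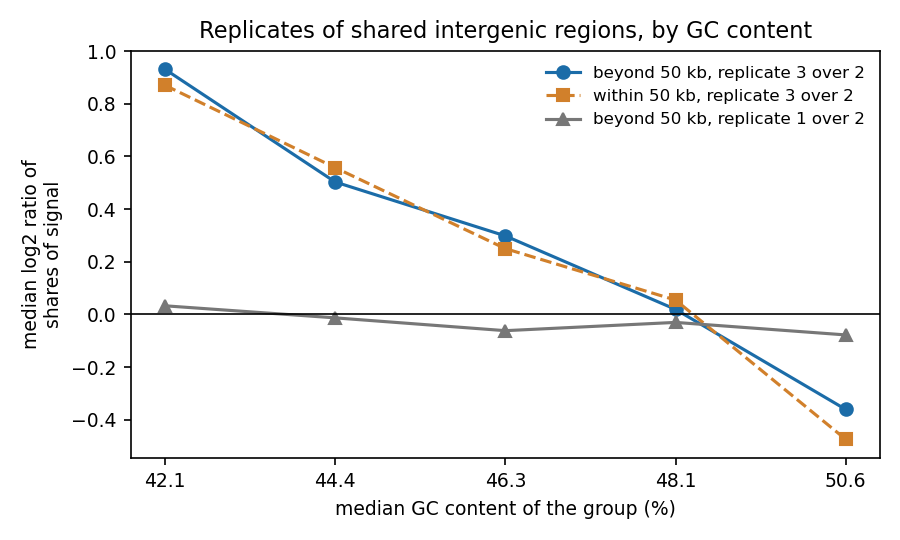
Median log2 ratio of the replicates' shares of signal (y axis) in 5 groups of far regions of rising GC content (x axis, median GC of each group in %), with the near intergenic regions of the same GC limits. The ratio of replicate 3 over 2 falls from 0.93 to -0.36 in far regions and from 0.87 to -0.47 in near regions, while that of replicate 1 over 2 stays near 0.

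A few strong regions were short and lay in repeats. The region with the highest mean percentile, 124.7 kb upstream of Fgf14 at chr14:124801490-124802251, was 762 bp long and 92.5% repeat-masked, and its highest pileup was 5373, 1725 and 1284 in replicates 1, 2 and 3, or 145, 36.7 and 33.8 times the list median. Of the 1907 regions, 9 were over 50% repeat-masked, among them all 6 that were shorter than 1 kb. Of the 8 regions with a highest pileup over 5 times the list median in all 3 replicates, 6 were over 50% repeat-masked. The third strongest region, inside the desert between Tcp10c and Tcte2, was 76.6% masked. Over all far regions the median masked share was 16.5%, and leaving the 9 out kept all of the 12 fullest deserts.

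The other strongest regions were broad and mostly unmasked. That upstream of Irf2bp2, a transcriptional corepressor gene, at chr8:126658433-126670943 was 12.5 kb long and stood at percentiles 99.6, 99.4 and 99.4. The region between Haao and Zfp36l2 at chr17:83978671-83993639 reached 14.97 kb, just within the length limit, at 99.2, 99.0 and 98.9. The region 59.5 kb upstream of Cdon, a cell-surface co-receptor for hedgehog proteins, stood at 98.8, 98.7 and 98.5. The region 134.6 kb from the Prex1 start site stood at 99.6, 98.9 and 97.7. It was 13.3% masked, but its highest pileup was 23.3, 16.9 and 8.71 times the list median, which put it among the 8 high-pileup regions above. For each of these 4 regions the percentiles of the replicates lay within 2 points of each other. The remaining pair of the 8 strongest, nearest to Npvf and to Srbd1, lie in deserts described below.

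The far regions lay in a minority of deserts. A desert is taken here as the stretch between neighbouring protein-coding gene bodies, and its eligible sequence as the part more than 50 kb from any protein-coding start site. Of 3332 deserts with eligible sequence, 676 (20.3%) held a far region. A single region was in 318 deserts, 2 or 3 were in 197, 4 to 9 in 134 and 10 or more in 27. The 161 deserts with 4 or more held 1115 regions, or 58.5%, in 10.03% of the eligible sequence, and 121 deserts were enough for 50% of the regions. Both sets were taken by their number of regions, so these shares are descriptions. The number of deserts that even placement would fill was not worked out. Neighbouring regions of one desert were a median of 28.9 kb apart, and 471 of 1231 neighbouring pairs were within 20 kb.

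The longest deserts held few far regions. Over the 923 Mb of eligible sequence there were 2.07 far regions per Mb, compared with 2.79 shared regions per Mb over the 482 Mb of intergenic sequence within 50 kb of a start site. The 20 longest deserts, with 74.7 Mb of eligible sequence, held 18 far regions, or 0.24 per Mb, and 12 of the 20 held none. Of their 39 flanking genes, 13 were on the list of neuronal adhesion genes, compared with 42 of all 5205 genes beside eligible sequence. The list was chosen with earlier results of these data known. Among the 13 are the protocadherins Pcdh9, Pcdh10 and Pcdh17 and the teneurins Tenm2 and Tenm3, named here after their place was seen. Over that whole list, 12 of the 42 genes beside eligible sequence (28.6%) flank a desert with a far region, compared with 24% of all such genes. All 20 were AT-rich, with GC contents from 36.2% to 38.3% and a median of 37.2%, compared with 42.1% over all deserts with eligible sequence and 44.6% in the 12 fullest. Peaks of single replicates in the 20 longest numbered 33, 22 and 50 in replicates 1, 2 and 3, and the replicate with the AT-rich skew had the most. Of 221 deserts with more than 1 Mb of eligible sequence, 155 held no far region. Among the 676 deserts with a far region, the number of regions and desert length had a Spearman's rho of 0.37.

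The 12 deserts with the most far regions held 188 of them, 9.86%, in 0.83% of the eligible sequence. They were chosen by that number, so their density of 24.7 per eligible Mb is a description. Peaks in these 12 numbered 308 in replicate 1, 247 in replicate 2 and 260 in replicate 3. Replicate 3, which had fewer peaks on the autosomes than replicate 1 (13850 and 16628), matched or exceeded it in the Npvf–Nfe2l3, Gas1–Dapk1 and Rad51b–Zfp36l1 deserts, and had the fewest peaks of the 3 in the Rps24–Zmiz1, Uaca–Tle3 and Prok2–Rybp deserts. In the latter deserts the median GC content of the far regions was 49.6%, 49.8% and 49.0%, the highest of the 12.

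**Figure D3:**
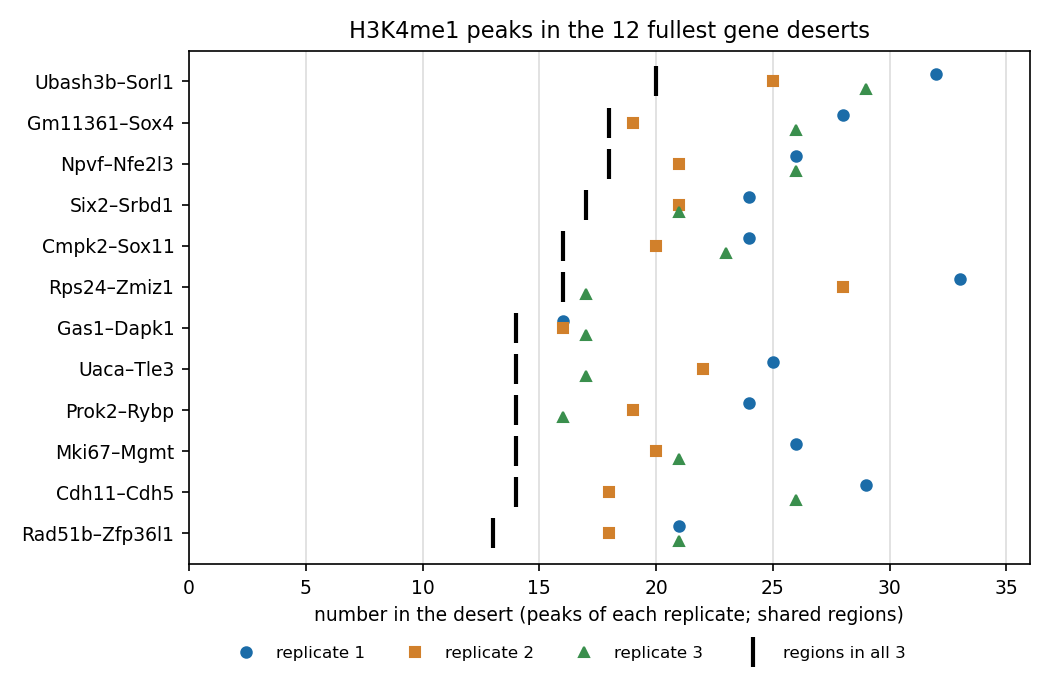
Number of H3K4me1 peaks of replicate 1 (circles), 2 (squares) and 3 (triangles) in each of the 12 fullest deserts, named by their flanking genes, and the number of far regions in all 3 replicates (black bars). Shared far regions range from 20 in the Ubash3b–Sorl1 desert to 13 in the Rad51b–Zfp36l1 desert, and replicate 3 is the lowest in the Rps24–Zmiz1, Uaca–Tle3 and Prok2–Rybp deserts.

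Transcription factor genes flank several of the 12. The Six2–Srbd1 desert, chr17:85688275-85984664, was the densest, with 17 far regions in 246.4 kb of eligible sequence, or 69.0 per Mb. Six2 encodes a homeodomain factor of facial mesenchyme and also of the progenitors of the kidney, and Srbd1 an RNA-binding protein. Replicates 1, 2 and 3 had 24, 21 and 21 peaks there, which covered 35.6%, 32.4% and 31.4% of the desert. The regions lay between 61.5 and 283 kb from the Six2 start site, and 8 of them were nearer to Six2 and 9 to Srbd1. Of the 17, 3 had a mean percentile above 90. The strongest, 183.8 kb upstream of Six2 and 12.4 kb long at chr17:85865915-85878309, stood at percentiles 99.0, 98.2 and 98.5, and the next, 114.1 kb upstream, at 98.2, 97.5 and 99.1. These 2 did not differ beyond the spread of the replicates. The weakest, 149.1 kb upstream, was at 50.9, 0.19 and 41.2, near the foot of the list in replicate 2.

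Sox4 and Sox11, closely related SoxC factors of embryonic progenitor cells, each flank a desert of the 12. The Gm11361–Sox4 desert, chr13:28258135-28948918, held 18 far regions between 71.8 and 535 kb from the Sox4 start site, 14 of them nearer to Sox4 than to Gm11361, a predicted gene. Replicates 1, 2 and 3 had 28, 19 and 26 peaks there. The strongest region, whose centre is the first stretch printed above, was the farthest from Sox4 and stood at percentiles 93.3, 91.9 and 96.4. The nearest to Sox4, at 71.8 kb, stood at 80.2, 40.9 and 88.3, with replicate 2 well below the others. In 16 of the 18 regions replicate 3 exceeded replicate 2 as a share of signal, at a median GC content of 44.0%.

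Between Cmpk2, the gene of a mitochondrial nucleotide kinase, and Sox11 (chr12:26479838-27334263) lay 16 far regions, 12 of them nearer to Sox11, and 24, 20 and 23 peaks of the 3 replicates. Of the 4 regions between 157.6 and 204.5 kb from the Sox11 start site, 3 were strong. The region whose centre is printed above stood at percentiles 96.95, 96.71 and 97.99, and the region 157.6 kb away at 96.02, 94.96 and 98.06. Another, 186.7 kb away, stood at 95.6, 86.3 and 87.1. The remaining 1 of the 4, 168.1 kb away, was weaker, at 54.5, 19.6 and 64.7. The nearest region, 88.2 kb from Sox11, was among the weakest, at 28.4, 3.58 and 31.3. Sox11 also flanks the desert on its other side, and 25 far regions lay in both together.

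The Rad51b–Zfp36l1 desert, chr12:79814691-80107753, had the highest share of covered sequence among the 12 in each replicate, 39.9%, 34.3% and 36.2% in replicates 1, 2 and 3. Zfp36l1 encodes a protein that binds AU-rich elements of mRNAs and speeds their decay, and Rad51b a DNA repair protein. All 13 far regions were nearer to the Zfp36l1 start site, from 50.3 to 292 kb away, and 21, 18 and 21 peaks were called. Their median length was 6925 bp, compared with 4548 bp over all far regions, and 4 had a mean percentile above 90. The strongest, 14.4 kb long and 94.3 kb from Zfp36l1, stood at percentiles 98.7, 98.4 and 97.9, and the region 186.5 kb away at 98.8, 97.3 and 98.7. None of the 3 replicates had a peak within 1 kb of a Zfp36l1 start site or within 5 kb of the gene.

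**Figure D4:**
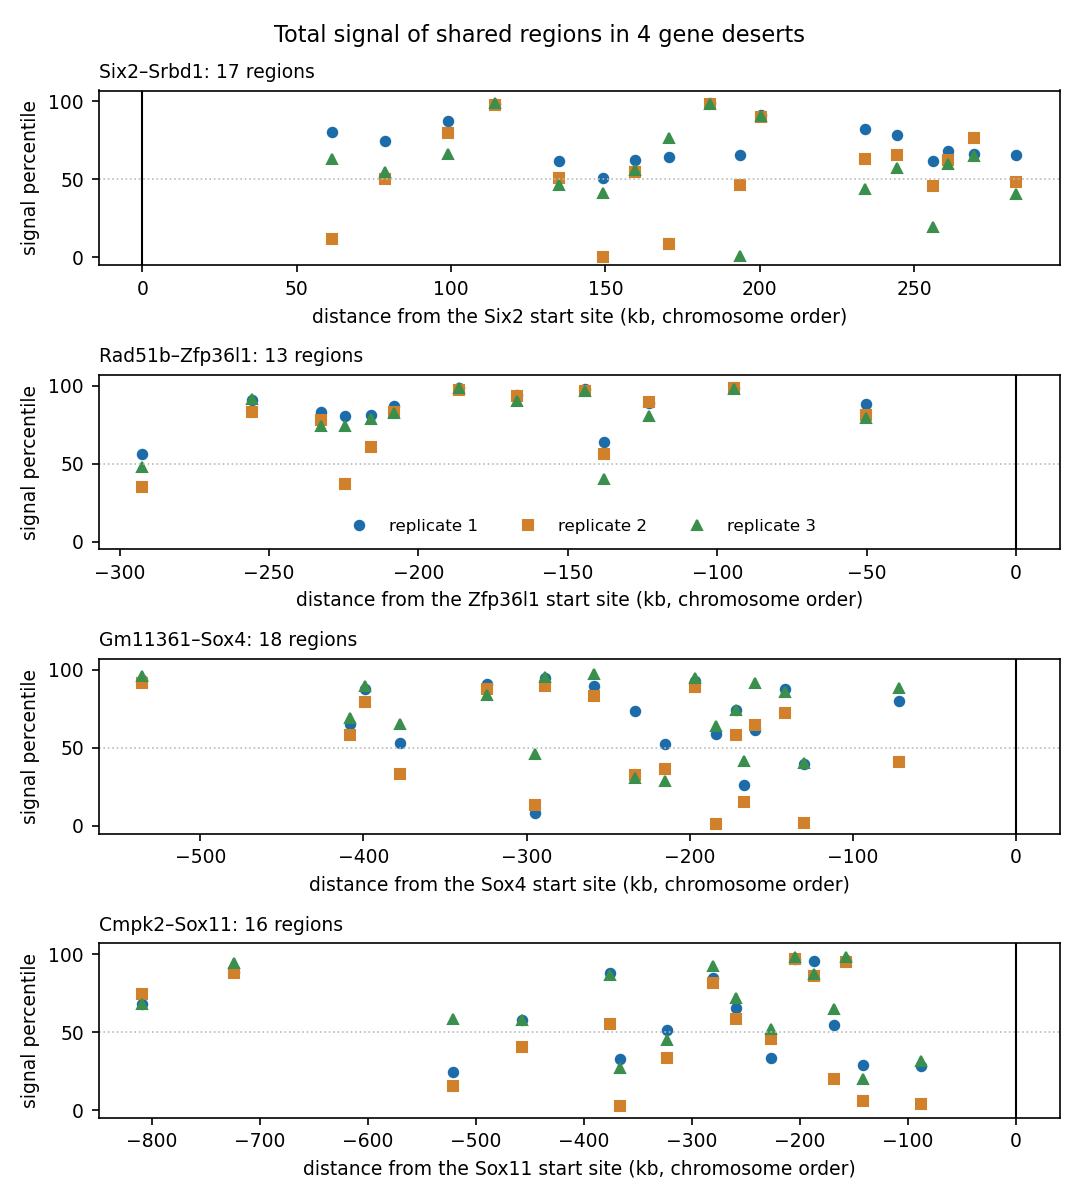
Percentile of total signal (y axis) of each far region in the list of replicate 1 (circles), 2 (squares) and 3 (triangles), against its distance from the start site of Six2, Zfp36l1, Sox4 or Sox11 (x axis, kb; negative values lie at lower chromosome positions). The strongest regions of each desert are high in all 3 replicates, such as the region at 183.8 kb from Six2 with 99.0, 98.2 and 98.5. Weak regions are often lowest in replicate 2, which also has the lowest median over all shared regions (62.6, against 70.7 and 64.6 in replicates 1 and 3).

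The Gas1–Dapk1 desert, chr13:60177366-60601946, held 14 far regions, 7 nearer to Gas1, a hedgehog co-receptor gene, and 7 nearer to Dapk1, a kinase gene of cell death pathways. It was the desert of the 12 in which the replicates were most alike in number, with 16, 16 and 17 peaks. With the desert on its other side, Gas1 flanked 25 far regions. The strongest, 51.2 kb upstream of Gas1, stood at percentiles 95.2, 94.0 and 83.5. The Uaca–Tle3 desert, chr9:60880371-61372365, lies beside Tle3, the gene of a Groucho corepressor that acts with TCF/LEF factors, and held 14 far regions and 25, 22 and 17 peaks. Its strongest region, 154.8 kb from Uaca, stood at 93.7, 92.9 and 94.2. Tle3 flanked 21 far regions on both sides together. The Prok2–Rybp desert, between a prokineticin gene and the gene of a Polycomb protein, held 14 far regions and 24, 19 and 16 peaks, and its strongest region stood at 98.1, 96.2 and 84.2, lowest in replicate 3.

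The Cdh11–Cdh5 desert, chr8:102785643-104101624, was the longest of the 12, at 1316 kb, and held 14 far regions and 29, 18 and 26 peaks. It lies between genes of cadherins of different cell types, Cdh11 of mesenchyme and Cdh5 of endothelium, and 9 of its regions were nearer to Cdh11. A peak overlapped the body of Cdh11 or the 5 kb on either side in all 3 replicates, whereas none did so for Cdh5. The strongest region, printed above, lay 485.7 kb upstream of Cdh11 and stood at percentiles 89.0, 88.1 and 94.7. The Rps24–Zmiz1 desert, chr14:24496960-25459184, beside Zmiz1, a transcriptional coactivator gene, held 16 far regions, 13 of them nearer to Zmiz1, and its 33, 28 and 17 peaks differed more between replicates than in the other 11 of the 12 fullest deserts. Of its regions, 7 had a mean percentile above 90, the most of the 12 deserts, and the strongest, printed above, stood at 97.2, 96.8 and 95.7 in the 3 replicates.

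The fullest desert lay between Ubash3b, the gene of a phosphatase that dampens receptor signalling, and Sorl1, the gene of a sorting receptor (chr9:41161698-41964719). It held 20 far regions, 9 nearer to Ubash3b and 11 to Sorl1, and 32, 25 and 29 peaks, which covered 14.7%, 14.5% and 18.3% of it. The strongest region, 187.8 kb from the Sorl1 start site at chr9:41932800-41940096, stood at percentiles 98.0, 92.6 and 97.4. The Npvf–Nfe2l3 desert, chr6:50654440-51432669, between a neuropeptide gene and a gene of the CNC leucine zipper family, held 18 far regions and 26, 21 and 26 peaks. One of its regions, 327.3 kb upstream of Npvf and 11.4 kb long, was among the 8 strongest of all, at 98.8, 98.4 and 99.6. Neither Npvf nor Nfe2l3 had a peak within 5 kb of the gene in any replicate. The Mki67–Mgmt desert, between the gene of a proliferation antigen and that of a DNA repair enzyme, held 14 far regions and 26, 20 and 21 peaks, and its strongest region, 146.1 kb upstream of Mki67, stood at 96.3, 96.3 and 95.6.

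Annotated noncoding genes run through these deserts. Of the 1907 far regions, 540 (28.3%) overlapped a noncoding gene by at least 1 bp, compared with 23.2% of near intergenic regions. A noncoding start site was held by 224 (11.7%), compared with 11.9%. In the Gm11361–Sox4 desert, 2610307P16Rik, a noncoding transcript of 425.6 kb on the minus strand, lay over 17 of the 18 regions. In the Ubash3b–Sorl1 desert, 16 of the 20 regions were over a noncoding gene, 8 of them over 3110039I08Rik, 4 over Gm49317, 4 over AC160966.1, 3 over Gm48742, 3 over Gm35835 and 2 over Gm35940, some of which overlap. Beside Six2, AC151289.1 lay over 5 regions and Gm29418 over 2. Gm9866 lay over 5 regions of the Cmpk2–Sox11 desert, Zmiz1os1 over 3 and Gm26660 over 2 in that of Rps24–Zmiz1, and Gm47923, Gm33699 and B930092H01Rik over 2 each in that of Uaca–Tle3. Gm35333 in the Gas1–Dapk1 desert, Gm33201 in the Prok2–Rybp desert and Gm36660 in the Rad51b–Zfp36l1 desert each lay over 2. When start sites of every annotated gene, noncoding ones included, were used for the distance limit, 463 regions lay more than 50 kb from one, and 3 of the 12 fullest deserts were still among the 12 fullest.

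The genes beside the deserts were checked for H3K4me1 of their own. A peak lay within 1 kb of a start site in all 3 replicates in 6.39% of the 20780 protein-coding genes, and in 227 (18.2%) of the 1247 genes beside a desert with a far region and 65 (21.2%) of the 307 beside one with 4 or more. Of the 24 genes beside the 12 fullest deserts it was 3, or 12.5%, namely Six2, Srbd1 and Tle3. With a window of 2.5 kb this count was 5. Without replicate 2 it was 5 and without replicate 3 it was 8, over the remaining replicates. These were counted beside the 12 fullest deserts of each setting, of which 10 are the same, so the genes differ in part. A peak over the body or the 5 kb on either side was present in all 3 replicates in 16.1% of all genes, in 573 (46.0%) of the 1247 genes, in 171 (55.7%) of the 307 and in 13 (54.2%) of the 24. Genes beside long intergenic stretches differ from genes at large in this count. Of the 5205 genes beside a desert with eligible sequence, 9.49% had such a start-site peak and 26.1% such a peak over the body, and of the 3958 of them with no far region in either desert, 6.75% and 19.9% did. These shares are descriptions, with no test.

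The flanking genes were compared with lists of genes of the cells a whisker pad holds and of other tissues. Of all protein-coding genes, 6.0% flank a desert with a far region and 1.48% one with 4 or more, and of the 5205 genes beside a desert with eligible sequence the shares were 24% and 5.90%. Of 64 transcription factor genes of facial mesenchyme, 54 flank a desert with eligible sequence, 36 of these (66.7%) one with a far region, and 14 of the 64 one with 4 or more. For genes of signalling ligands and antagonists it was 21 of 38 (55.3%), and 4 with 4 or more. Of the neuronal adhesion genes, Adgrl2 alone had 4 or more.

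The remaining lists hold markers of other cell types, each with few genes beside eligible sequence. Beside a desert with a far region stood 3 of 8 surface ectoderm genes with eligible sequence, 4 of 8 of muscle progenitors, 5 of 12 of endothelium and blood, 1 of 9 of neurons and Schwann cells and 2 of 11 of liver, gut and pancreas. Adult kidney had 0 of 6. At start sites, 2, 1 and 1 of the 24 kidney genes had a peak in replicates 1, 2 and 3, and 1, 3 and 1 of the 24 genes of liver, gut and pancreas. For facial mesenchyme it was 43, 48 and 40 of 64 genes. For surface ectoderm it was 7, 7 and 3 of 24 genes and for neurons and Schwann cells 6, 6 and 1 of 22, with replicate 3 the lowest. Replicates 2 and 3, whose source name reads adult kidney, were thus near replicate 1 on the kidney and facial mesenchyme lists. All 3 replicates had a start-site peak in 6.39% of all protein-coding genes. Of the kidney genes it was 1 of 24 (4.17%) and of the facial mesenchyme genes 31 of 64 (48.4%). It was 3 of 24 (12.5%) for surface ectoderm, 4 of 20 (20%) for muscle progenitors and 4 of 23 (17.4%) for endothelium and blood. For neurons and Schwann cells it was 1 of 22 (4.55%), and for liver, gut and pancreas 0 of 24. The share of all genes was not worked out for single replicates, so their counts have no background beside them. The lists were chosen with earlier results of these data known, so these counts are no independent test of the tissue label.

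**Figure D5:**
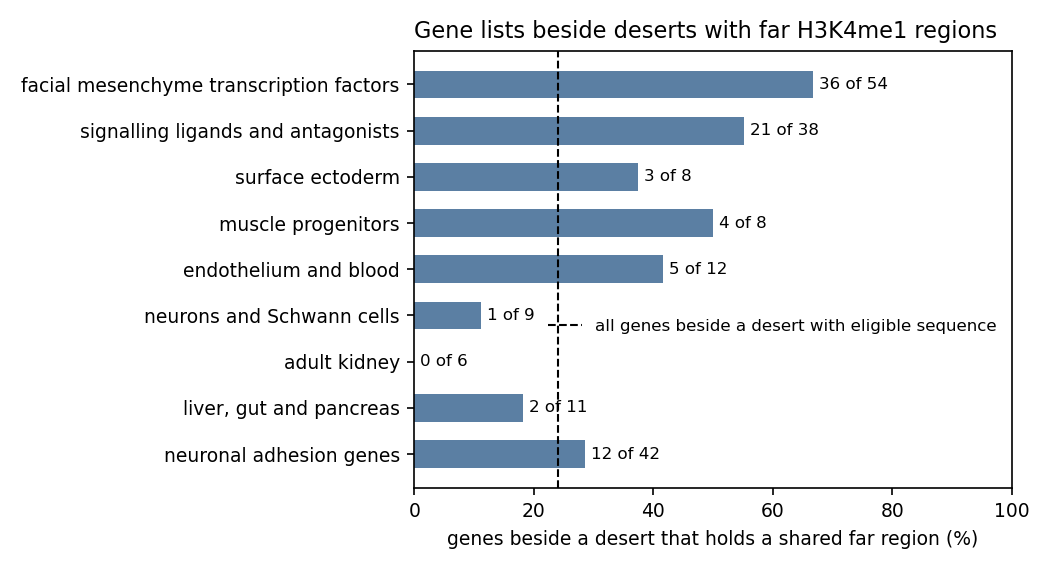
Share of the genes of 9 lists that flank a desert holding a shared far region (x axis, %), out of the genes of the list that flank any desert with eligible sequence. The dashed line is the 24% over all 5205 such genes, and facial mesenchyme transcription factors (36 of 54) lie highest and adult kidney genes (0 of 6) lowest.

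Among the facial mesenchyme genes, Msx2, a homeobox gene of the BMP response, flanks a desert with 9 far regions, 8 of them nearest to Msx2, and 11, 12 and 10 peaks of replicates 1, 2 and 3. Bnc2, a zinc finger gene of dermal fibroblasts, flanks 8 on the side of Ccdc171, all nearest to Bnc2, with 14, 9 and 13 peaks. Nfib, a gene of the nuclear factor I family, flanks 9 on the side of Mpdz, 5 of them nearest to Nfib, with 15, 10 and 14. Twist2, a basic helix-loop-helix gene of the dermis, flanks 6 on one side and 2 on the other, of which 1 and 1 were nearest to Twist2. Meis1 flanks 6 and 3, Tshz3 6 and 4, Zfhx3 5 and 1, Ebf2 4 and 1, Sox6 4, Tbx18 4 and Runx2, the regulator of bone formation, 4. Nearest to the gene itself were 4 and 3 for Meis1, 1 and 2 for Tshz3 and all for Zfhx3 and Sox6. For Ebf2, Tbx18 and Runx2 it was 0, as another gene's start site was nearer. Six2, described above, had the most of this list, with 17.

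The deserts of Sox9 differed between its sides. Sox9 encodes a factor of cartilage and neural crest, and its desert towards Kcnj2, 1705 kb long, is known for far enhancers of the face. It held 1 far region, at percentiles 35.1, 5.0 and 34.2, and 5, 5 and 9 peaks of the replicates. The desert on the other side, towards Slc39a11 and 457 kb long, held 7 far regions, 5 of them nearest to Sox9, with 14, 10 and 7 peaks and median percentiles of 84.9, 83.4 and 64.8.

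Lef1 and Prdm1 are the genes the study is about, the first a nuclear partner of β-catenin and the second a zinc finger repressor needed for whisker follicles. The desert between Rpl34 and Lef1, chr3:130730399-131110470, held 8 far regions, 4 of them nearest to Lef1, and 14, 11 and 13 peaks. The nearest lay 89.3 kb upstream of Lef1 at percentiles 70.3, 73.0 and 59.3 in replicates 1, 2 and 3, and the strongest by the mean, 187.2 kb upstream, stood at 83.8, 74.3 and 80.2. Prdm1 flanked 1 far region on each side, fewer than the 4 that put a gene under the rule for named genes, and it is named for the study's sake. These lay 74.8 kb downstream, at percentiles 73.9, 43.5 and 72.3, and 142.0 kb upstream, at 59.5, 54.1 and 79.5, with replicate 2 the lowest in both.

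Among the signalling genes, Cxcl12, the gene of a chemokine of mesenchyme, flanked 10 far regions towards Zfp637 and 7 towards Tmem72, with 17, 16 and 12 and 13, 9 and 11 peaks. Bmp7 and the surface ectoderm gene Tfap2c flank the same desert, which held 9 far regions, 5 nearest to Bmp7 and 4 to Tfap2c, at median percentiles of 79.8, 76.4 and 66.9, so that these regions count for both lists. Bmp4, a ligand of the whisker mesenchyme, and Gdf10 each flanked 4, of which 1 was nearest to Bmp4 and 4 to Gdf10. In the remaining lists, Eya4 flanked 5, Runx1 6, Ptprc, the gene of the blood cell antigen CD45, 7, and Cdh5 the 14 it shares with Cdh11. Nearest to the gene itself were 2 for Eya4, 2 for Runx1, 5 for Ptprc and 5 for Cdh5. Adgrl2 flanked 8 towards Adgrl4 and 4 towards Ttll7, in deserts of 2447 and 1832 kb. A desert counts for the genes at both of its ends, and a region's target among them was not measured.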

How the data were processed

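The authors called H3K4me1 peaks in each of the 3 replicates with SEACR 1.3 in stringent mode, without IgG, keeping the top 1% of signal blocks. Per the submitters' processing notes, Bowtie2 2.3, SAMtools 0.1.19, bedtools and mm10 were used. The deposited signal columns (total and maximum pileup of a peak) are whole numbers with no scaling to depth, so they were compared as percentiles within a list or as shares. The study gives 1 nominal sequencing depth for all samples, and a peak list carries no read count. The paper's supplement plots sequencing depth and unique fragments, but those values were not used here. A fixed share of blocks makes peak number no measure of enrichment. Coordinates are 1-based GRCm38, genes are GENCODE M21, and start sites are those of protein-coding transcripts (52063 distinct). A region with several peaks of a replicate took the strongest. Genes named flank the 12 fullest deserts, lie nearest to the 8 strongest or 5 farthest regions, or belong to 9 lists (297 genes) and flank a desert with 4 or more regions. Printed stretches were limited to those where the replicates' highest pileups lay close together. Members, lists and tests were chosen with earlier results of these data known. Membership was tested on simulated data. Python 3.11.15, pandas 2.3.3, numpy 2.4.6, scipy 1.17.1 and matplotlib 3.10.9 were used.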

Additional observations from a re-analysis of the deposited data

Results flagged for a closer look

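Chromosome X, which the rule leaves out, held 25 regions in all 3 replicates that met its other conditions, of 76 regions in all 3 replicates and 192 merged regions there. A further 19 intergenic regions beyond 50 kb on chromosomes 1 to 19 were in all 3 replicates but measured 15000 bp or more. Neither set enters the comparisons above.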

How the results depend on the processing

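Recomputing the 12 results under 20 alternatives gave 183 values, of which 5 changed sign and 36 moved. The other 142 did neither. A count moved if it changed by over 1.5 times, and most other values if they changed by more than their spread between replicates. The log2 ratio of replicate 3 over 2 moved if it left the 95% interval of its median over the far regions. Those regions share their libraries, so that interval is no spread between replicates. The 2 differences under test, which never passed it, are judged by sign alone. Where that held, the percentile difference ranged from -2.50 to -0.94 and the length difference from -106.5 bp with the stronger 50% of each list to -6.5 bp without replicate 1, against -30.0 bp. Start sites of every transcript of protein-coding genes (1808 far regions) and leaving out regions over 50% repeat-masked (1898), both chosen after seeing the data, moved none. With the stronger 50% of each list there were 892 far regions in 413 deserts, 0.97 per Mb, 117 of them in the 12 fullest, a GC difference of -2.01 points, 31.8% over a noncoding gene and a log2 ratio of replicate 3 over 2 of 0.25. The strongest 10000 peaks of each list gave 1.42 per Mb, a GC difference of -2.21 and, reversed, a length difference of 18.7 bp. A limit of 25 kb gave a share of 27.7%, a GC difference of -2.18, a ratio of 0.23 and reversed differences of 0.61 percentile points and 39.8 bp. A limit of 100 kb gave 14.7%, 429 deserts, -2.55, a ratio of 0.36 and 1 gene with a start-site peak beside its own 12 fullest deserts. Start sites of every annotated gene gave 463 far regions (5.24%) in 241 deserts, 56 of which held 50%, 1.19 per Mb, a reversed length difference of 3 bp, a GC difference of -1.93, 5.40% over a noncoding gene, 83 regions in the 12 fullest and a ratio of 0.36. Leaving out regions in the body of any annotated gene gave 16.7%, -2.63 and 7.78% over a noncoding gene, fewer by construction. Ranking by maximum signal reversed the percentile difference, to 0.41, and GC content over 300 bp gave -2.00. Start-site peaks of the 24 flanking genes numbered 5 within 2.5 kb and 13 over the body or 5 kb on either side.

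Leaving out each replicate in turn gave GC differences from -2.82 to -2.33 and shares over a noncoding gene from 26.6% to 28.2%. Beside the 12 fullest deserts of each such setting, 3 to 8 genes had a start-site peak, 8 without replicate 3. The percentile difference then ranged from -2.16 to -1.06. Of the 12 fullest deserts, 10 to 11 were again among the 12 fullest without 1 replicate, 8 with every gene body left out and 3 with every annotated start site. The causes were not tested. No paired analysis was possible because only H3K4me1 files were used, and the IgG samples with the same numbers were not analysed here. Read depth is not given by the lists, so weak regions missed in a replicate cannot be told apart from absent ones.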
